A study of Macaca mulatta with 12 samples.

Results

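The pre-miRNAs mml-mir-122a and mml-mir-802 were followed through 12 small RNA profiles of rhesus macaque (Macaca mulatta) tissues. They were selected on measured levels of the same profiles, as the pair of digestive organ miRNAs, and make up 2 of the 831 usable pre-miRNAs in the study's list. Of the 8 tissues, 4 were profiled 2 times (large intestine, small intestine, kidney and muscle) and 4 were profiled 1 time (occipital lobe, spinal cord, lung and liver). All tissues came from wild-type animals of 36 months without treatment, so no group carried an allele or agent that the others lacked. The study took the samples from a pair of animals, and the labels do not tie profiles to animals, so that tests between tissues measure only the spread between these profiles.

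A miRNA is cut from a hairpin precursor by Drosha and Dicer. One or both arms of the hairpin give a mature miRNA, named 5p or 3p, which guides an Argonaute protein to messenger RNAs that pair with its seed, nucleotides 2 to 8. A read that begins 1 nucleotide earlier or later therefore carries another seed, while the 3' end is often trimmed or extended by nucleotides that the hairpin does not encode. miR-122 is known as the typical miRNA of hepatocytes, where it takes part in lipid metabolism. miR-802 has been studied in the intestine, liver and pancreas of other mammals, where it has been linked to glucose metabolism and to the intestinal epithelium.

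The pre-miRNAs are shown first because the ends of the reads, described below, are read against them. Capitals mark the most abundant exact read of each arm in liver for mml-mir-122a and in small intestine for mml-mir-802.
mml-mir-122a: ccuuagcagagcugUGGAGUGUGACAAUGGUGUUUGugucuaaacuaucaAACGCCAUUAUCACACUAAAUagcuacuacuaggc
mml-mir-802: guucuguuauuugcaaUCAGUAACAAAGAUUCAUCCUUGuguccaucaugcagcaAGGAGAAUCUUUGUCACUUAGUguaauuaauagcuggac
These pre-miRNAs have 85 and 94 nucleotides. By gene order in the RefSeq annotation of T2T-MMU8v2.0, MIR122A lies between the coding genes ALPK2 and NEDD4L, and MIR802 lies inside the non-coding gene LOC144339661, between SETD4 and RUNX1. That assembly is not the one used in the study, so no coordinates are given.

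The mature miRNAs follow, from 5' to 3', with the seed in capitals, first as annotated and then as the most abundant exact read where that differs.
miR-122-5p, annotated and most abundant: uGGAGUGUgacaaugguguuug
miR-122-3p, annotated: aCGCCAUUaucacacuaaaua
miR-122-3p, most abundant: aACGCCAUuaucacacuaaau
miR-802-5p, annotated: cAGUAACAaagauucauccuugu
miR-802-5p, most abundant: uCAGUAACaaagauucauccuug
miR-802-3p, most abundant (no annotated mature miRNA): aGGAGAAUcuuugucacuuagu
None of these seeds is shared with another of the 1217 mature sequences on the 831 pre-miRNAs (0 for each), and the members share no seed with each other. No read of either pre-miRNA matched another of the 831 exactly (0 reads). The study's list was held only in part, so sequences outside that part were not compared.

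The files hold 22118095 to 25579064 valid reads per profile. Levels are given in RPTM, reads per 10000000 valid reads, so that 3 reads, the limit that a count of 0 allows, stand for 1.17 to 1.36 RPTM. Exact matches to a pre-miRNA made up 36.8% of these reads in liver, the lowest share, and 69.3% in kidney 1, the highest. Intervals are Wilson 95% intervals and cover counting error only, since PCR copies were not marked by molecular identifiers.

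miR-122 was a liver miRNA in these profiles. miR-122-5p had 18149 reads in liver, or 7320 RPTM with an interval from 7215 to 7427. In the 11 profiles of the other tissues it had 3 to 10 reads each, with a lowest level of 1.23 RPTM in small intestine 1, a median of 1.95 RPTM and a highest level of 4.37 RPTM in lung. Liver thus had 1674 times the level of lung, the next profile, and 3745 times the median of the 11. The second highest of these was muscle 1 with 9 reads (3.75 RPTM), and small intestine 1 and 2 had 3 and 5 reads (1.23 and 2.11 RPTM). The order among these low profiles rests on 57 reads in all, and neighbours in it have overlapping intervals. Because the pair was selected on these levels, they are a description and were not tested, and liver has 1 profile and so no replicate error.

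The 3' arm was also highest in liver. miR-122-3p, which is cut from the other arm of the hairpin, had 1038 reads in liver (419 RPTM). Elsewhere it had 3 reads in small intestine 1, 2 in kidney 1, 1 each in large intestine 1, occipital lobe and spinal cord, and 0 in the other 6 profiles. Levels of 3 reads or fewer lie within the limit that a count of 0 allows and are not read as presence. In bulk tissue, fewer cells of a type and less RNA per cell cannot be told apart.

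miR-122-5p ranked 32 of the 459 mature sequences with reads in liver, with 0.0732% of the valid reads and 0.199% of the reads that matched a pre-miRNA. The most abundant mature sequences of that profile were miR-192-5p with 1203650 RPTM (12.04% of the valid reads), let-7f-5p with 425969 RPTM and miR-143-3p with 343634 RPTM. The level of miR-192-5p, a miRNA known from liver, kidney and intestine, was 164 times that of miR-122-5p. miR-122-5p is known as an abundant miRNA of hepatocytes, and its rank in this profile is given as measured.

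miR-802 was found in the small intestine. miR-802-5p had 920 reads (376 RPTM) in small intestine 1 and 244 reads (103 RPTM) in small intestine 2, a mean of 239.7 ± 193.4 RPTM (SD, n = 2). It had 3 reads in spinal cord (1.25 RPTM), 1 read in large intestine 2 (0.425 RPTM) and 0 assigned reads in the other 8 profiles, liver included. Kidney 1 also held 3 exact reads of this arm that ended 3 nucleotides before the annotated end and so were not assigned. Both small intestine profiles lay above all others, whose counts of at most 3 reads lie within the limit that a count of 0 allows. The levels in small intestine 1 and 2 were 311 and 85.0 times the level that 3 reads would stand for in liver (1.21 RPTM). These ratios are not strict lower limits, since the Wilson upper limit for 0 reads in liver was 1.55 RPTM. Large intestine, the neighbouring organ, held 0 and 1 assigned reads. As for miR-122, these levels chose the pair and were not tested.

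The 2 small intestine profiles differed from each other in this miRNA. Small intestine 1 had 3.66 times the miR-802-5p of small intestine 2, a difference of 1.86 on the log2 scale of RPTM + 1. The median absolute difference between these profiles was 0.45 over the 370 mature sequences that passed the filter on low levels (a mean of at least 5 RPTM and an SD of at least 1), and 11 of them (2.97%) differed more. miR-802-5p ranked 88 among the mature sequences with reads in small intestine 1 and 138 among those in small intestine 2. In both profiles miR-143-3p, known from smooth muscle, was the most abundant (29.6% and 31.7% of the valid reads), followed by miR-192-5p (18.7% and 14.5%) and then by let-7f-5p in the first and miR-10a-5p in the second.

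The 3' arm of mml-mir-802 carries no annotated mature miRNA in the list. It was read exactly 6 times in small intestine 1 (2.46 RPTM), 1 time in small intestine 2 (0.422 RPTM) and 0 times in the other 10 profiles. Of these 7 reads, 4 began at nucleotide 55 and 3 at nucleotide 56 of the pre-miRNA. With tails allowed the counts were 11 and 1.

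**Figure D1:**
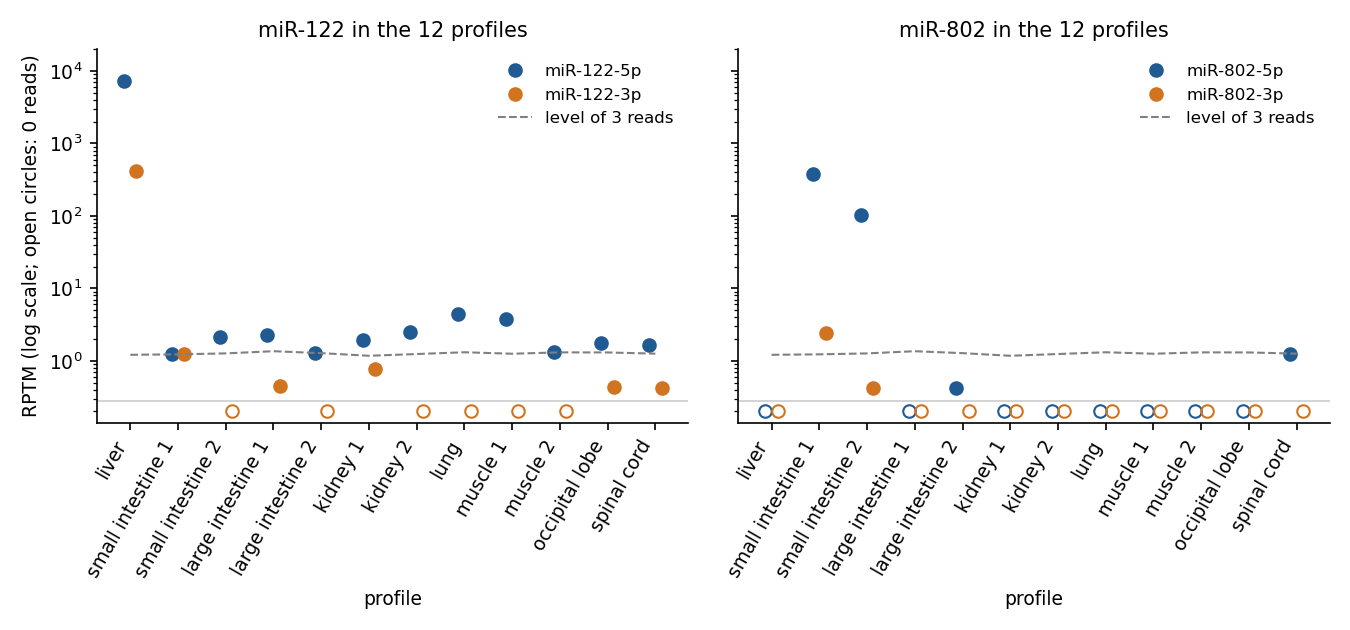
Level of both arms of miR-122 (left) and miR-802 (right) in each of the 12 profiles, in RPTM on a log scale, with open circles for 0 reads and a dashed line at the level of 3 reads. The filled circles far above the dashed line are miR-122-5p (7320 RPTM) and miR-122-3p (419 RPTM) in liver and miR-802-5p in small intestine 1 and 2 (376 and 103 RPTM).

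Markers of the other tissues were read in the same profiles. The muscle list (miR-1, miR-133, miR-206 and miR-208b, known from striated muscle) summed to 266716 and 302175 RPTM in muscle and to 96.0 RPTM (liver) to 1853 RPTM elsewhere, and the neural list (miR-9 and miR-124) to 395069 and 265452 RPTM in occipital lobe and spinal cord and to 173 to 995 RPTM elsewhere. The muscle sums are inflated in all profiles, because reads shared by miR-133a-3p and miR-133c-3p were counted for both. In muscle these had 129703 and 144690 RPTM, and 129693 and 144682 RPTM. The blood cell list (miR-144, miR-451, miR-486, miR-223 and miR-142) had 17384 and 18753 RPTM in small intestine, 121242 RPTM in liver and 824632 RPTM in muscle 2, the highest of its 10331 to 824632 RPTM. Most of the sum in muscle 2 was miR-486-5p (815651 RPTM), and members of the list differed in order. miR-451-5p was also highest in muscle 2 (5006 RPTM). In contrast, miR-223-3p and miR-142-5p were highest in lung (816 and 2550 RPTM), with 47.1 and 466 RPTM in muscle 2.

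Reads of the members lay in 2 blocks on each hairpin, with 0 reads across the loop. In liver, 19821 exact reads covered the 5' arm of mml-mir-122a and 1313 the 3' arm, so that the 3' arm gave 6.21% of the reads (5.90 to 6.55), or 1 read for 15.1 of the 5' arm. Of the 132 other pre-miRNAs with enough reads in liver, whose lesser arm took a median of 0.501%, 78.0% had a smaller share. For mml-mir-802 the 3' arm gave 7 of 1247 reads in small intestine (0.561%, 0.272 to 1.15), with 0.599% in the first and 0.407% in the second profile. The medians of the 120 other pre-miRNAs in these profiles were 0.426% and 0.445%.

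**Figure D2:**
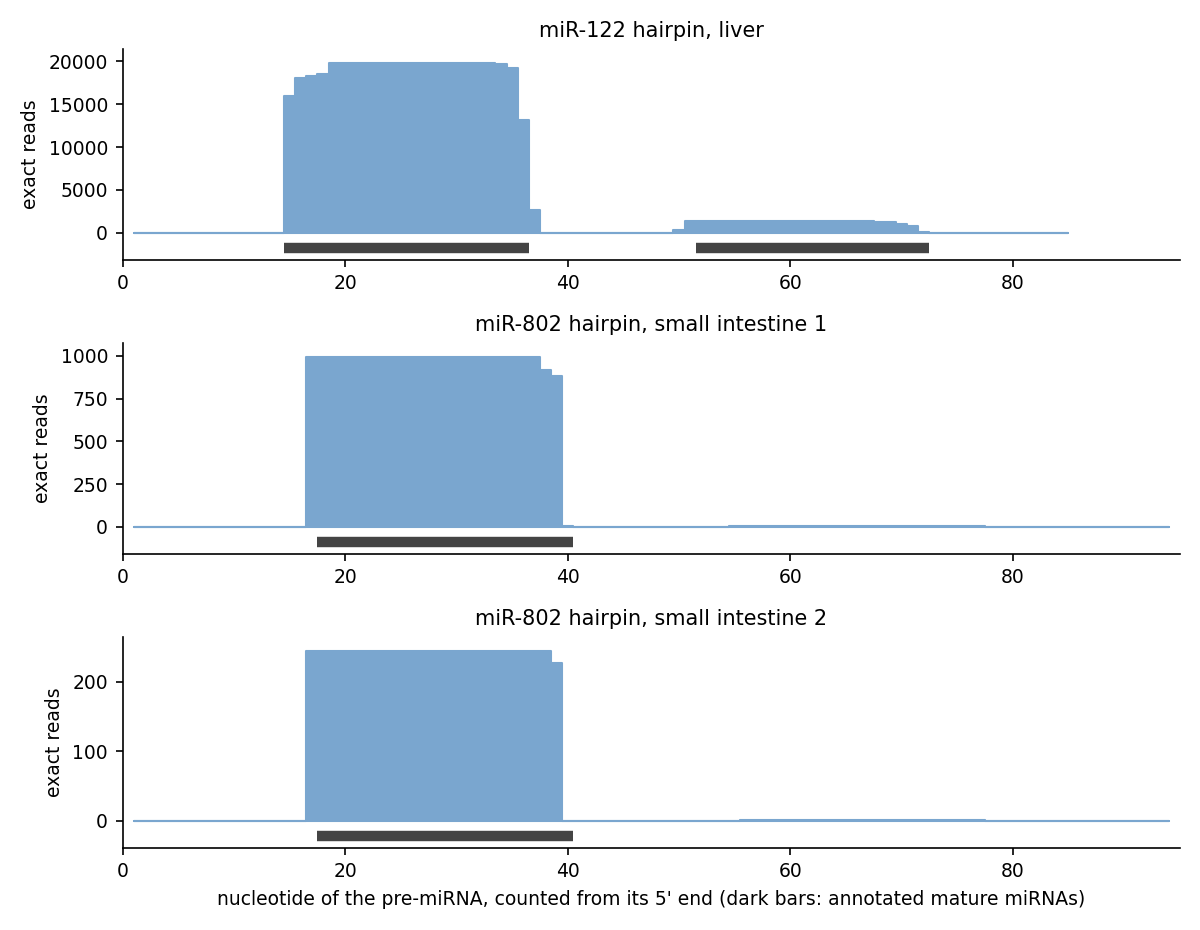
Exact reads over each nucleotide of the pre-miRNA (x axis, counted from the 5' end) for mml-mir-122a in liver and mml-mir-802 in small intestine 1 and 2, with dark bars for the annotated mature miRNAs. The 5' block of mml-mir-122a reaches 19821 reads and the 3' block is lower, while the reads of mml-mir-802 begin 1 nucleotide before the bar and the 6 and 1 reads of its 3' arm hardly rise above the axis.

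The 5' end of miR-802-5p differed from the annotation. The annotated miRNA begins at nucleotide 18 of the pre-miRNA, and 0 exact reads began there in small intestine. Of the 1240 exact reads of this arm, 1237 (99.8%, 99.3 to 99.9) began at nucleotide 17, with 992 of 995 in small intestine 1 and 245 of 245 in small intestine 2, so that both profiles gave the same end. The read from nucleotide 17 to 39, shown above, made up 873 and 228 reads. It carries the seed CAGUAAC in place of AGUAACA. The 3 other exact reads began at nucleotide 19.

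In miR-122-3p the 5' end was shifted too. In liver, 1 of 1313 exact reads (0.0762%) began at the annotated nucleotide 52, 974 (74.2%, 71.7 to 76.5) began 1 nucleotide earlier and 319 (24.3%, 22.1 to 26.7) began 2 nucleotides earlier. The seeds of the 2 forms are ACGCCAU and AACGCCA, and the annotated seed is CGCCAUU. Such shifts were found in a minority of the mature sequences. Over the 357 with at least 200 reads in the 12 profiles together, the median share of reads at the annotated start was 97.6%, the annotated start was not the most frequent one in 49 (13.7%), and in 19 (5.32%) it held under 1% of the reads.

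miR-122-5p mostly began where it is annotated. In liver, 15927 of 19821 exact reads (80.4%, 79.8 to 80.9) began at nucleotide 15, 2148 (10.8%) began 1 nucleotide later and 1346 (6.79%, 6.45 to 7.15) began 4 nucleotides later. The last group ended mainly at the annotated 3' end and so had 18 nucleotides, the shortest length kept. The 2 later forms are shown with their seeds in capitals, since neither seed is that of the annotated miRNA.
miR-122-5p, from nucleotide 16: gGAGUGUGacaaugguguuug
miR-122-5p, from nucleotide 19: gUGUGACAaugguguuug
Among the 165 other mature sequences with enough reads in liver, the median share of reads that began 4 nucleotides late was 0 and all 165 lay below miR-122-5p. For the start 1 nucleotide late, the median was 0.112% and 151 of the 165 lay below it.

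Over all 12 profiles, 1348 of 19879 reads of miR-122-5p (6.78%) began 4 nucleotides late, the second highest share of the 256 mature sequences compared, after miR-99a-5p with 7.93%. The first 4 letters of miR-122-5p, UGGA, are also the first 4 letters of the 3' adapter of these libraries. In the 4 mature sequences that begin with UGGA the share had a median of 3.39%, with 5.84% for miR-1-3p, 0.940% for miR-206-3p and 0 of 203 reads for miR-185-5p beside miR-122-5p. In the other 252 the median was 0, and 7 of them were above 1%. The part of the adapter in these reads was not tested. Nor was its part in the level, the rank and the arm share of miR-122 in liver.

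The 3' ends were more variable than the 5' ends in miR-122 and nearly uniform in miR-802. Exact reads of miR-122-5p in liver ended at the annotated nucleotide 36 in 52.9%, 1 nucleotide before it in 30.6% and 1 after it in 13.5%. Those of miR-122-3p ended 1 nucleotide before the annotated end in 56.7%, 2 before it in 19.3%, 3 before it in 17.5% and at it in 3.20%. miR-802-5p ended 1 nucleotide before the annotated end in 88.0% of the reads of small intestine 1 and 93.1% of those of small intestine 2. Its second most frequent end differed between the profiles, with 7.14% (5.70 to 8.91) and 0.408% (0.0721 to 2.28) at 3 nucleotides before the annotated end, and 3.92% and 6.53% at 2 before it. The annotated end itself held 5 of 1240 reads (0.403%).

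**Figure D3:**
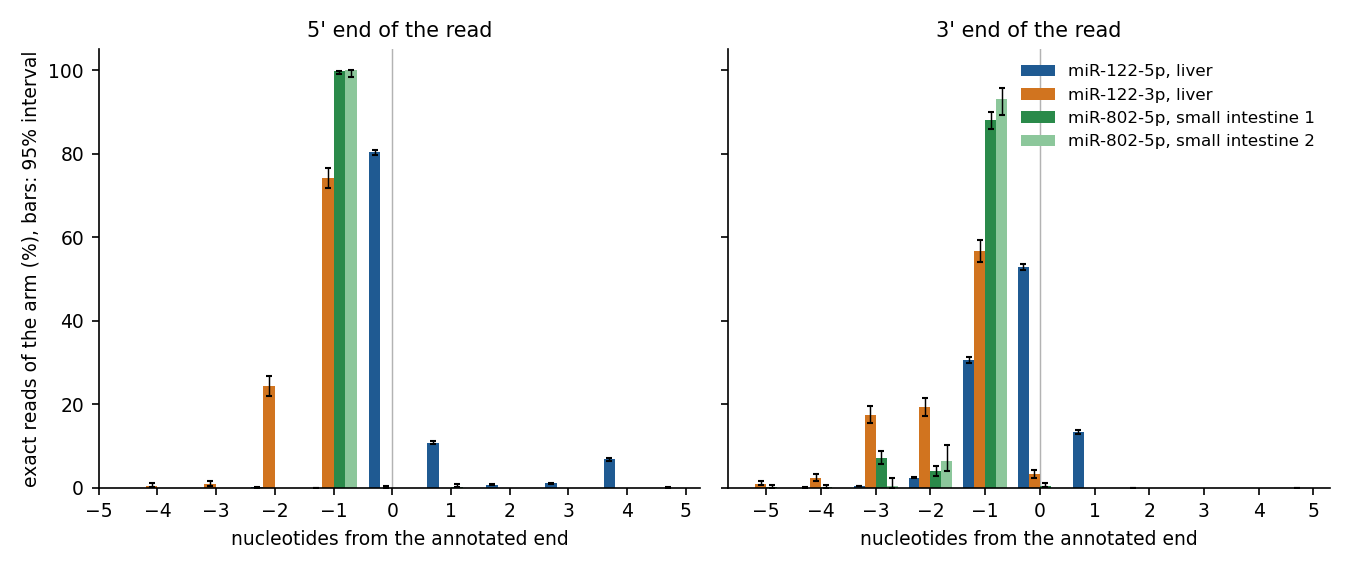
Share of the exact reads of each arm (y axis, percent, with Wilson 95% intervals) by the distance of their 5' end (left) and 3' end (right) from the annotated end, in nucleotides, with negative values toward the 5' end of the pre-miRNA. The bars of miR-802-5p stand near 100% at 1 nucleotide before the annotated 5' end in both profiles, whereas 80.4% of miR-122-5p stands at 0 with smaller bars at 1 and 4.

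Non-templated 3' tails of 1 to 3 nucleotides, letters that follow an exact stretch and are not in the pre-miRNA, were a readout that the choice of the pair did not use. In liver, 6147 of 24399 reads of miR-122-5p carried such a tail (25.2%, 24.7 to 25.7). C tails were 11.4% of the reads, A tails 7.52%, G tails 2.26%, U tails 0.791% and tails of mixed letters 3.19%. The most frequent were an A after the annotated end (1605 reads, 26.1% of the tailed reads), a C after the nucleotide 2 before that end (1340 reads) and a C after the annotated end (1229 reads). A tail of 1 letter cannot be told from a changed last letter.

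Against the other mature sequences with enough reads in liver, miR-122-5p was not extreme. Their median share of tailed reads was 34.5%, and 31.4% of them lay below miR-122-5p. For A tails the median was 4.90% and 59.8% lay below it, and for C tails the median was 10.7% and 52.1% lay below it. miR-122-3p in liver had tails in 337 of 1631 reads (20.7%, 18.8 to 22.7). Outside liver, 17 of 75 reads of miR-122-5p in all 11 profiles together were tailed (22.7%, 14.7 to 33.3), an interval that holds the value of liver. Only liver had the 50 reads required for a comparison between profiles, so the A tails of liver could not be tested against those of other tissues.

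miR-802-5p had few tails. In small intestine 1, 60 of 1053 reads were tailed (5.70%, 4.45 to 7.27) and in small intestine 2, 14 of 259 (5.41%, 3.25 to 8.87), so the 2 profiles differed by less than counting error. The other mature sequences had medians of 24.1% (167 sequences, 6 of them below miR-802-5p) and 26.1% (160 sequences, 10 below it). A tails made up 0.950% and 1.54% of the reads against medians of 4.29% and 4.22%, and C tails 2.75% and 1.16% against 6.13% and 8.75%. G tails made up 0.855% against a median of 2.26% in small intestine 1, and 1.16% (3 reads) against a median of 0.573% in small intestine 2, where 84.4% of the others were lower. Of the tailed reads, 4 of 60 and 1 of 14 ended with the first letters of the adapter, as did 59 of 6355 tailed reads on the 5' arm of mml-mir-122a in liver.

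**Figure D4:**
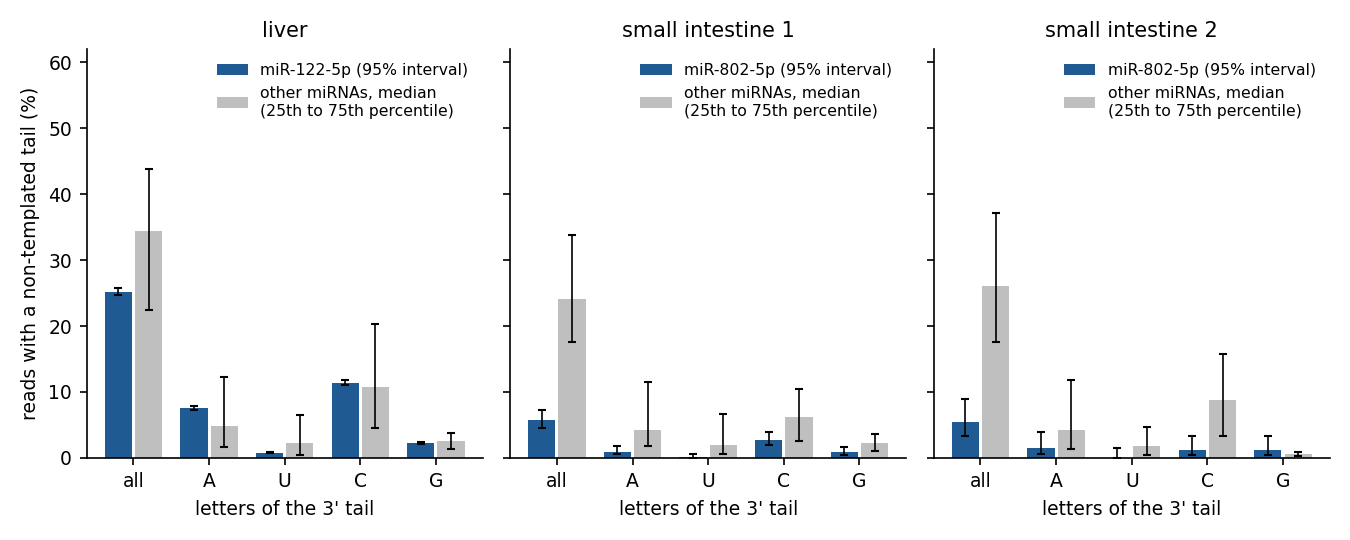
Percent of reads with a non-templated 3' tail, for tails of any letters and of A, U, C or G alone, in liver for miR-122-5p and in small intestine 1 and 2 for miR-802-5p (blue, Wilson 95% interval), beside the median of the other mature sequences of that profile (grey, with the 25th to 75th percentile). The blue bar for all tails is 25.2% against 34.5% in liver, and 5.70% and 5.41% against 24.1% and 26.1% in small intestine.

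Changed letters inside the miRNAs were rare. In liver, 75 different changes of 1 letter were seen in miR-122, of which 30 had at least 10 reads. None of those 30 (0) reached 5%, the level that the study required of an editing site beside 10 reads. With positions counted from 1 at the annotated 5' end of miR-122-5p, the highest of the 30 was G2U with 308 of 17078 reads (1.80%, 1.61 to 2.01), and the highest A-to-G changes among them were A4G with 0.441% and A10G with 0.421%. A change with 4 of 25 covering reads, just before the annotated 5' end, was above 5% with too few reads to meet the other limit. In miR-802, 20 changes were seen in small intestine and 0 of them had 10 reads.

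The miRNAs whose pattern was most like that of each member were found by Pearson's r of log2(RPTM + 1) over the 12 profiles, among the 370 mature sequences. These values are a description, since the points share libraries and depth and 1 or 2 profiles set them. For miR-122-5p they were miR-122-3p (r = 0.972), miR-431-5p (0.697), miR-148a-3p (0.691), miR-148a-5p (0.678) and miR-676-3p (0.661). After its own partner arm, the values fell off: miR-431-5p had 69.4 RPTM in liver and up to 17.1 RPTM elsewhere, and miR-148a-3p, known from liver and pancreas, had 261170 RPTM in liver and up to 73797 RPTM elsewhere.

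For miR-802-5p they were miR-215-3p (r = 0.878), miR-215-5p (0.753), miR-18a-5p (0.702), miR-143-5p (0.640) and miR-147b-3p (0.637). miR-215-3p had 270 and 115 RPTM in small intestine 1 and 2, so that it too was higher in the first, with 0 reads in liver and up to 14.5 RPTM elsewhere. The other arm, miR-215-5p, known from the intestinal epithelium, had 166876 and 183652 RPTM in small intestine, 4653 RPTM in liver and up to 18791 RPTM in large intestine 1. miR-147b-3p reached 63.8 and 43.0 RPTM in small intestine and 59.2 RPTM in large intestine 1.

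A list of 20 other pre-miRNAs known from liver, intestine, pancreas and epithelium put the pair beside the miRNAs of its organs. Of these, 18 were in the list of pre-miRNAs, with 31 mature sequences, and 22 of the 31 passed the filter on low levels. Their summed level was 2235680 and 1818850 RPTM in small intestine, 1510360 RPTM in liver, 1141010 and 527207 RPTM in large intestine, 305945 and 357679 RPTM in kidney and at most 90168 RPTM in the other 5 profiles. Most of the sum was miR-192-5p in small intestine (1873840 and 1445510 RPTM), liver (1203650 RPTM) and large intestine (978784 and 443632 RPTM). The small intestine profiles and liver thus stood highest, in that order, both in the sum and in miR-192-5p. Each was compared with the mean of the other 7 tissues by edgeR's quasi-likelihood test (two-sided, Benjamini-Hochberg adjustment over all 370 mature sequences). In the liver comparison the lone profile was assumed to vary like those of the paired tissues. The list was chosen with earlier results of these data known, and it holds both arms of some hairpins, which are not independent. The counts below therefore describe a chosen list and are no independent support.

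In small intestine, 15 of the 22 were higher, 2 were lower and 5 did not pass, against 18.6% higher and 17.8% lower of all 370. Among those that did not pass, miR-885-5p and miR-885-3p, with 0 reads in lung, had SEs of 6026 and 10202. miR-885-3p also had 0 reads in both small intestine profiles, in both large intestine profiles and in kidney 2. The fit could not call miR-885-5p or miR-885-3p in either direction, so it does not show that they were not lower. The median log2 fold change was 4.80 for the list and -0.30 for all sequences. miR-194-5p rose by a log2 fold change of 6.45 (SE 0.26, adjusted p = 6.31e-08, edgeR), from a median of 248 RPTM over the 9 profiles outside liver and small intestine to 23053 and 15874 RPTM. miR-192-5p, of the same seed-sharing family as miR-215-5p, rose by 5.61 (SE 0.27, adjusted p = 2.32e-07, edgeR), and miR-215-5p by 9.20 (SE 0.47, adjusted p = 2.56e-07, edgeR). The other miRNAs that were higher were miR-215-3p and miR-194-3p, the epithelial miR-141 (both arms), miR-200a (both arms), miR-200c-3p and miR-429-3p, and miR-31-5p, miR-375-3p and miR-148a (both arms). The latter rose least, by 1.44 for miR-148a-3p (SE 0.34, adjusted p = 0.00748, edgeR). miR-215-3p passed the filter only through small intestine, so its call is no support. It had 0 RPTM in liver, and a median of 0 and at most 14.5 RPTM over the 9 profiles outside liver and small intestine. Some of these were no higher than in another profile. miR-141-5p, miR-200a-5p and miR-429-3p had 99.0, 177 and 3185 RPTM in large intestine 1, above both small intestine profiles. In lung, miR-141-3p had 9354 RPTM, also above both. miR-200a-3p and miR-200c-3p in large intestine 1 (776 and 169 RPTM) lay between the small intestine profiles, and both arms of miR-148a were higher in liver. Both arms of miR-193b were lower, with 18.4 and 12.7 RPTM for miR-193b-3p in small intestine and up to 2807 RPTM in muscle 2. Without small intestine 1 none of the list was lower (0), and without small intestine 2 only miR-193b-5p was (1). DESeq2 also counted 15 higher and 2 lower, the latter being miR-193b-3p and miR-885-5p in place of miR-193b-5p.

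In liver, 13 of the 22 were higher, 0 were lower and 9 did not pass by edgeR, against 18.1% higher and 16.5% lower of all 370, and the same 13 and 0 were counted at an unadjusted p under 0.05. Among those that did not pass, miR-200c-3p and miR-215-3p, with 0 reads in liver, had SEs of 11050 and 5069. The fit could not call them in either direction, so it does not show that they were not lower. The median log2 fold change was 2.34 for the list and -0.04 for all sequences. miR-885-5p rose by 5.60 (SE 0.38, adjusted p = 2.99e-06, edgeR), with 264 RPTM in liver, 1.23 and 0.844 RPTM in small intestine and up to 197 RPTM in occipital lobe. miR-192-5p rose by 4.51 (SE 0.30, adjusted p = 2.99e-06, edgeR) and miR-148a-3p by 3.51 (SE 0.37, adjusted p = 0.000106, edgeR). Also higher were miR-885-3p, miR-194-5p, miR-194-3p, miR-148a-5p, both arms of miR-455, miR-215-5p, miR-193a-3p, miR-375-3p and miR-193b-3p. The contrast averages log levels, so some of these lay below another profile in RPTM. RPTM also leave out the TMM factors of the fit (1.06 in liver, 2.26 in occipital lobe), so close orders can change on the fitted scale. For miR-193b-3p, 189 RPTM in liver lay below the 2807 RPTM of muscle 2. In occipital lobe, miR-885-3p and miR-455-5p had 39.1 and 524 RPTM, against 21.4 and 320 RPTM in liver. In large intestine 1, miR-375-3p and miR-215-5p had 95210 and 18791 RPTM, against 28507 and 4653 RPTM in liver. Small intestine was above liver for both arms of miR-194, miR-192-5p, miR-375-3p and miR-215-5p. The epithelial miR-200c-3p, which had 175 and 141.3 RPTM in small intestine, had 0 reads in liver. DESeq2 counted 11 higher and 1 lower (miR-200c-3p), and without occipital lobe and spinal cord, an alternative chosen after seeing the data, edgeR counted 9 higher and 4 lower (miR-141-3p, miR-141-5p, miR-200c-3p and miR-429-3p).

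**Figure D5:**
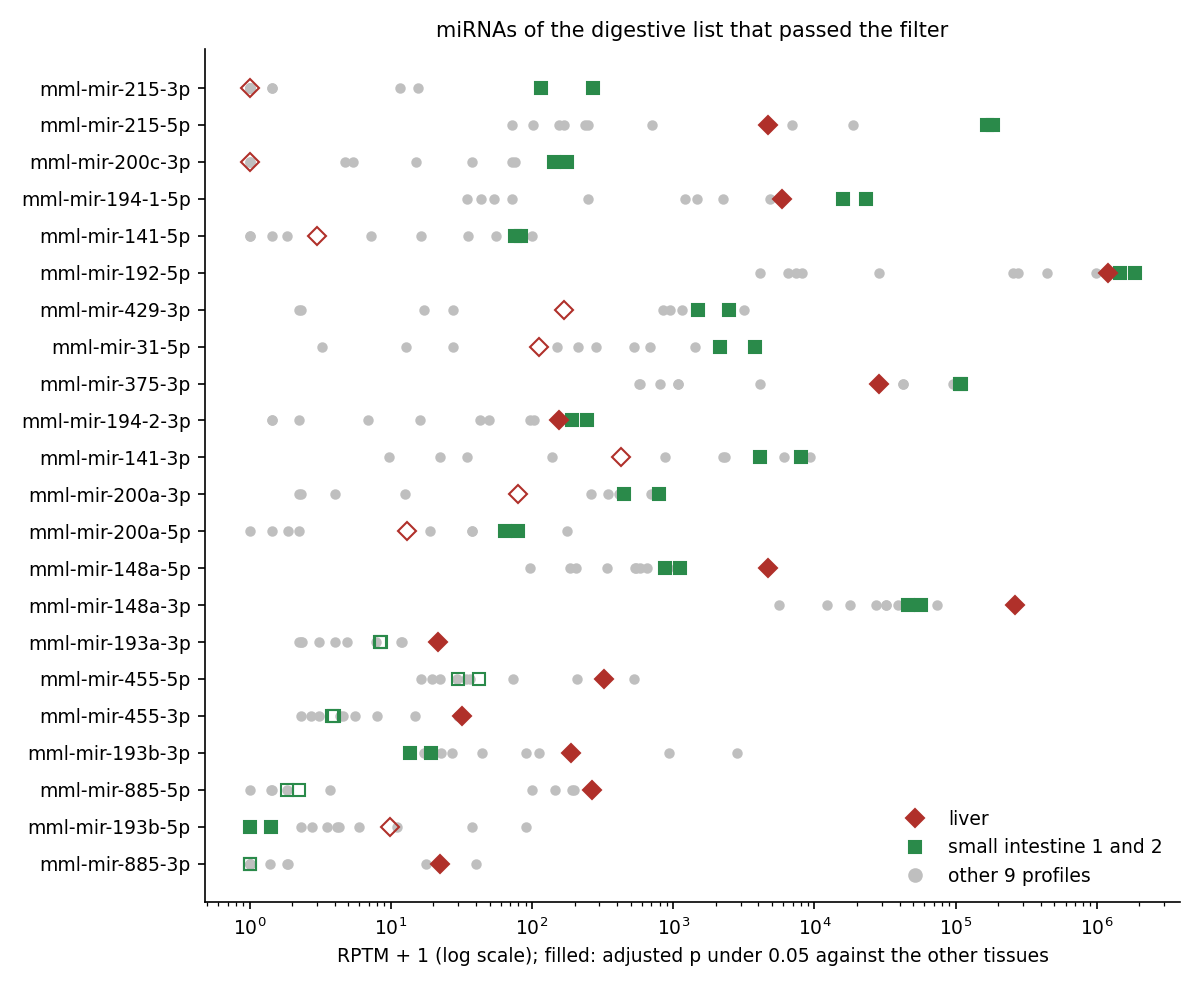
Level (RPTM + 1, log scale) of the 22 mature sequences of the digestive list in liver (diamonds), small intestine 1 and 2 (squares) and the other 9 profiles (grey circles), with filled diamonds and squares where the tissue differed from the mean of the others (edgeR, adjusted p under 0.05). The green squares lie to the right for miR-215, miR-194 and miR-192, and the red diamonds for miR-148a and miR-885-5p. In the miR-200 and miR-141 group, grey circles lie among the squares or to their right.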

How the data were processed

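The deposited values are read counts of unique sequences, 1 file per profile. Per the study's methods, the authors required a sequencing score of at least 30 over 25 nucleotides of a read, trimmed the adapter at the 3' end, collapsed identical sequences and counted those longer than 18 nucleotides, without normalization. The methods describe these steps as part of the MiRME pipeline. The files also hold sequences of 18 nucleotides, the shortest in each. The samples were grouped by the tissue in the labels.

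Sequences were matched to the pre-miRNAs of the study's supplementary list, of which 831 could be read and which was held here only in part. Exact matches were assigned to a mature miRNA if neither end was more than 2 nucleotides from the annotated one. A read that met this for several mature sequences was counted for each. Reads without an exact match were taken as tailed when their longest exact start had at least 18 nucleotides and 1 to 3 letters followed. Changes of 1 letter were counted outside the first and the last 3 letters of a read. Shares were compared with mature sequences of at least 200 reads. The highly abundant miRNAs lower the RPTM of all others.

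The members and lists were chosen with earlier results of these data known. Named were every arm of the pair, the 5 mature sequences most correlated with each 5p arm, those of the digestive list that passed the test in small intestine or liver, and the 3 most abundant of those profiles. Counts of the 370 filtered sequences were fitted with edgeR 4.0.16 (TMM factors, valid reads as library sizes, the 8 tissues as groups), with DESeq2 1.42.0 as an alternative, in R 4.3.3 with limma 3.58.1. Python 3.11.15 with numpy 2.4.6, pandas 2.3.3 and scipy 1.17.1 did the rest. The steps were tested on simulated data. A permutation test of A tails between profiles was planned and could not be run, because 1 profile had the 50 reads it needed. The profiles' depth and floors are given with the results.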

Additional observations from a re-analysis of the deposited data

Results flagged for a closer look

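Reads from the other strand of mml-mir-122a were found in 2 profiles, in data that no comparison above used. Muscle 1 held 13 of them (5.42 RPTM), more than the 3 reads that a count of 0 allows, and liver held 3 (1.21 RPTM), while the other 10 profiles held 0. The 13 reads of muscle 1 were 3 sequences that begin at the same nucleotide, of 19, 22 and 23 letters with 4, 4 and 5 reads, the last being uuuagugugauaauggcguuuga. Muscle 1 had 9 assigned reads of miR-122-5p and 0 of miR-122-3p. No reads of the other strand of mml-mir-802 were found in any profile (0 reads in each).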

How the results depend on the processing

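The level of miR-122-5p in liver was 7320 RPTM by the assignment used here, 2971 RPTM from reads identical to the annotated sequence alone, 10558 RPTM with all reads of the arm and their tails, and 19869 per 10000000 exact pre-miRNA reads. The mean of miR-802-5p in small intestine was 240 RPTM, and 0 RPTM from identical reads alone, since no read began at the annotated nucleotide. It was 270 RPTM with tails, 366 per 10000000 pre-miRNA reads and 103 to 376 RPTM with 1 profile left out, the lower value without small intestine 1 and the higher without small intestine 2. The share of tailed miR-122-5p reads in liver was 24.0% with at least 20 templated nucleotides, 25.9% for reads from the annotated 5' end and 22.1% for tails of 1 nucleotide only. For miR-802-5p the last of these gave 4.33%, leaving out a profile gave 5.41% to 5.70%, and the annotated 5' end gave no value, since it had 0 reads. The share of the 3' arm moved by less than its interval in both pre-miRNAs, with 0.407% to 0.599% for mml-mir-802 when 1 profile was left out. Of the digestive list, the counts higher in small intestine ran from 14 to 15 and those lower from 0 to 2 with 1 profile left out, and in liver from 12 to 13 and from 0 to 0. The other settings gave 13 to 16 higher in small intestine and 9 to 14 in liver. Lower in liver were 1 with DESeq2 and 4 without occipital lobe and spinal cord, which changed the tissues that liver was compared with. The highest counts of higher miRNAs in both tissues came without the filter on low levels, where 30 of the list were tested in place of 22. The share of all sequences called was counted for the main fit only. Replicate numbers were not used as pairs in the main fit. The mean correlation of deviations at the same number was 0.030 over 6 pairs of tissues (-0.138 to 0.153). That value cannot tell whether the numbers mark the animals, whose effects may be small. With a replicate block on the 8 numbered profiles, 13 were higher and 2 lower in small intestine. The test of A tails planned between profiles was not run. Outside liver and small intestine, each assigned count of a member was at most 10 reads, so orders among those profiles rest on few reads.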
